A study of Mus musculus with 4 samples.

Results

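The Hox genes of the A, B, C and D clusters were read out in gonadal white adipose tissue (gWAT) of mice lacking Dnmt1 in adipocytes. Members were taken by symbol, as every gene named Hox followed by a cluster letter and a paralog number. The expression table lists 35 of them among 17335 genes, of 39 annotated in RefSeq for the mouse. Hoxb13, Hoxc12, Hoxd12 and Hoxd13 are not listed in it. Of the 35, 33 reached 0.1 FPKM (fragments scaled by transcript length and by library size) in at least 1 library and entered the comparison, and Hoxb1 and Hoxc13 did not.

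Female fl/fl mice, which carry loxP-flanked Dnmt1 alleles and no Cre, were compared with their female AD1KO littermates, which carry the same alleles and an adiponectin-Cre transgene. Both groups received a high-fat diet (HFD) for 18 weeks, and the age of the mice is not given in the sources used here. The adiponectin promoter drives Cre mainly in mature adipocytes, so stromal, vascular and immune cells of the pad keep Dnmt1. RNA of 4 mice per group was pooled into 1 library per group, so every difference below compares a pair of libraries with no replicate check. In such whole-tissue RNA, fewer cells of a type and less RNA per cell cannot be told apart. The 2 methylation samples of the series, from male mice, were not analysed here.

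Hox genes encode homeodomain transcription factors that give cells a position along the body axis. They lie in clusters in which gene order follows the order of expression from head to tail, so that low paralog numbers mark anterior and high numbers posterior positions. Adult fat keeps part of this pattern, and preadipocytes from different depots differ in their Hox transcripts. The clusters are rich in CG dinucleotides and are kept silent by Polycomb complexes or by DNA methylation where they are not expressed.

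In AD1KO gWAT, 17 of the 33 tested Hox genes were higher by at least 0.5 on the log2 scale and 1 was lower, against 14.3% of all 15839 tested genes higher and 19.1% lower. Hoxa6, Hoxc11 and Hoxd1 are listed at 0 in fl/fl and could only be called higher. Without them 14 of 30 were higher and 1 was lower. The summed level of the 35 genes was 109 FPKM in fl/fl and 165 FPKM in AD1KO. Rises that rest on at least 50 reads included those of Hoxa9, Hoxa5, Hoxa10, Hoxb5, Hoxa7, Hoxc8, Hoxc6 and Hoxd9, and the only gene past the call downward was Hoxa13, from few reads. The median log2 ratio over the 33 genes was 0.52, and 0.40 without those listed at 0 in fl/fl, against -0.04 over all tested genes. The median over the 33 was -0.02 once both libraries were scaled to the adipocyte markers, which themselves had a median log2 ratio of 0.54. That scaling was chosen after seeing the data and moved the median of all tested genes to -0.58.

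Dnmt1 itself, the maintenance DNA methyltransferase and the targeted gene, stood at 6.99 FPKM in the fl/fl library and at 3.33 FPKM in the library labelled AD1KO, which rests on about 640 and 301 reads. The log2 ratio was -1.07 (95% counting interval -1.27 to -0.87). The table holds no read counts, so reads were estimated from FPKM and transcript length, at a fitted depth of 17660000 reads for fl/fl and 17420000 for AD1KO. Each interval given below is the exact Clopper-Pearson one on these reads. Reads without molecular identifiers are not independent molecules, so the intervals cover counting error only. Ratios are log2 of AD1KO over fl/fl after adding 0.01 FPKM, which understates the change of low genes detected in both libraries and sets the ratio of a gene listed at 0.

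Because Dnmt1 acts on CG dinucleotides, the promoters of 3 HoxA genes are shown, those of a higher gene with many CG (Hoxa5), of a higher gene with few (Hoxa9), and of the single lower gene (Hoxa13). Each window runs from 250 bases before to 50 bases after a transcript start in RefSeq (GRCm38.p6), lies on the minus strand of chromosome 6, and is printed with each CG in capitals. The windows are chr6:52204538-52204837 for Hoxa5, chr6:52227321-52227620 for Hoxa9 and chr6:52260831-52261130 for Hoxa13. They hold 29, 4 and 45 CG.
Hoxa5: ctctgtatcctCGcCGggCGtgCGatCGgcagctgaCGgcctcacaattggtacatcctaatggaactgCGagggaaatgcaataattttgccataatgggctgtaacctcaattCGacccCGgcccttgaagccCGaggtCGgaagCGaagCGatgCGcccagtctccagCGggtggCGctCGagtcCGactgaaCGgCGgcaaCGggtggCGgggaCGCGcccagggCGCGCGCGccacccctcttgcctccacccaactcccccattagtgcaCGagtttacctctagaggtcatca
Hoxa9: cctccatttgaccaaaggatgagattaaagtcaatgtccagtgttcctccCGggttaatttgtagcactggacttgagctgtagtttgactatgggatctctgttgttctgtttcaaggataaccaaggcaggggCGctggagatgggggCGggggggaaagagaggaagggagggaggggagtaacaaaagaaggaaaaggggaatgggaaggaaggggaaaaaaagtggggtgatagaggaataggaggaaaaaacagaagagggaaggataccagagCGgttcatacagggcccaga
Hoxa13: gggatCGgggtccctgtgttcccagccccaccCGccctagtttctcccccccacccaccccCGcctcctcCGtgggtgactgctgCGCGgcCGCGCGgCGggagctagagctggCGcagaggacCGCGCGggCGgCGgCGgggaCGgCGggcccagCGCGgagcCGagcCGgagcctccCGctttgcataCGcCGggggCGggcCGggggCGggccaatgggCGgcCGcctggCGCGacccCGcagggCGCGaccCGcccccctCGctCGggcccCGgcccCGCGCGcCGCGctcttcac

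The RefSeq table holds a window for 20 of the 35 Hox genes. Among those without an entry are Hoxa4, Hoxb2, Hoxb3, Hoxb5, Hoxb6, Hoxb7, Hoxb9, Hoxc5, Hoxc6, Hoxc8, Hoxc9, Hoxc10, Hoxc11 and Hoxc13. A CG reads the same on both strands, and 94.6% of all 32851 windows hold at least 1. Taking the window with the most CG where a gene has several, the median was 17.5 CG over the 20 Hox genes and 8 CG over all 27025 genes with a window. At least 10 CG were present in 14 of the 20 Hox genes, which is 70%, and in 45.8% of all genes. The 11 higher Hox genes with a window held 4 to 29 CG with a median of 21, and the 7 that were neither higher nor lower held 4 to 20 with a median of 13. The ranges overlapped, and Hoxa9, with 4 CG, and Hoxa5, with 29, were both higher, with counting intervals that overlapped. The higher group includes Hoxd1 and Hoxa6, with 29 and 26 CG, which are listed at 0 in fl/fl and could only be called higher. It also includes Hoxd11 and Hoxd10, with 25 and 22 CG, on 31 and 47 reads over both libraries. Their intervals included 0, so the CG comparison rests in part on low genes. Methylation of these windows was not measured in these libraries.

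The HoxA cluster (chromosome 6 of mm9, 52105366 to 52210874, minus strand) has 11 genes, all listed and tested, of which 5 were higher, 1 lower and 5 neither. Its summed level was 23.8 FPKM in fl/fl and 40.6 FPKM in AD1KO, and the log2 ratio of its summed reads, about 906 and 1579, was 0.82 (interval 0.70 to 0.94). That interval lay above those of the HoxB, HoxC and HoxD sums given below. The median over its genes was 0.39, 0.85 over its 7 genes with at least 50 reads, and -0.15 with scaling to the adipocyte markers.

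Within HoxA the well counted rises lay side by side, between Hoxa5 and Hoxa10. Hoxa5, which patterns the lower neck and the lung, was at 2.40 FPKM in fl/fl and 5.02 FPKM in AD1KO (log2 ratio 1.06, interval 0.65 to 1.48). Hoxa7, a gene of the thoracic region, was at 5.48 and 9.90 FPKM (0.85, interval 0.59 to 1.12). Hoxa9, known from blood progenitors and from the lumbar region, was at 2.95 and 7.13 FPKM (1.27, interval 1.02 to 1.54), from about 174 and 415 reads. Hoxa9 thus rose 2.41-fold, and the whole interval lay past 1. Hoxa10, needed for a receptive uterus, was at 5.74 and 11.42 FPKM (0.99, interval 0.75 to 1.23). The intervals of these 4 genes overlapped, so their order by ratio is within counting error. Hoxa6, which lies between Hoxa5 and Hoxa7, had about 2 reads in AD1KO and is listed at 0 in fl/fl, and its interval runs from -2.39 upward without limit.

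Toward the ends of HoxA, Hoxa2, Hoxa3, Hoxa4 and Hoxa11 were not past the call, and their intervals included 0. Those of Hoxa2 and Hoxa3 overlapped the interval of Hoxa5, so a rise of that size could not be told apart. Those of Hoxa4 and Hoxa11 lay below it. Hoxa2, which patterns the hindbrain and the pharyngeal arches, was at 0.75 FPKM in fl/fl and 0.79 FPKM in AD1KO (log2 ratio 0.07, interval -0.82 to 1.00). Hoxa3, needed for the thymus and parathyroid, was at 1.51 and 1.98 FPKM (log2 ratio 0.39, interval -0.07 to 0.86), and Hoxa4 at 1.36 and 1.13 FPKM (-0.27, interval -1.04 to 0.50). Hoxa11, a neighbour of Hoxa10 that also acts in the uterus and in the limb, was at 2.57 and 2.36 FPKM (-0.12, interval -0.56 to 0.29). The intervals of Hoxa10 and Hoxa11 do not overlap. In the mm9 annotation 38.6% of the exon bases of Hoxa11 also lie in an antisense transcript. The same holds for 20.4% of those of Hoxa7, 49.4% of those of Hoxb2 and 37.9% of those of Hoxb3. Whether strand was used in counting is not given in the sources used here, so sense and antisense reads of these genes cannot be told apart.

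The HoxB cluster (chromosome 11, 96055630 to 96229570, plus strand) had 9 listed and 8 tested genes, of which 2 were higher and none was lower. Its summed level was 15.4 FPKM in fl/fl and 19.9 FPKM in AD1KO, and the log2 ratio of its summed reads was 0.34 (interval 0.18 to 0.51). The median over the 8 genes was 0.33, and -0.21 with scaling to the adipocyte markers.

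Hoxb5, the HoxB relative of Hoxa5, was the single HoxB gene with at least 50 reads that was past the call. It was at 2.01 FPKM in fl/fl and 3.97 FPKM in AD1KO (log2 ratio 0.98, interval 0.53 to 1.43). Hoxb4, known for the expansion of blood stem cells, was the most abundant HoxB gene in both libraries, at 3.71 and 4.0 FPKM (0.11, interval -0.21 to 0.43). The whole interval of Hoxb5 lay above that of Hoxb4. Hoxb2, Hoxb3, Hoxb6 and Hoxb7 had log2 ratios from 0.25 to 0.40 with intervals that included 0, and Hoxb8 was at 1.14 and 1.11 FPKM. The intervals of Hoxb2, Hoxb3, Hoxb6, Hoxb7 and Hoxb8 overlapped that of Hoxb5, so a rise of its size could not be told apart. Hoxb9 was past the call at 0.20 and 0.44 FPKM (1.10), but from about 9 and 20 reads, with an interval from -0.03 to 2.49. Hoxb7 and Hoxb8 share 1069 exon bases on the same strand in the mm9 annotation, so how reads were divided between them is uncertain. Hoxb1 had about 2 reads in fl/fl against a listing of 0 in AD1KO.

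The HoxC cluster (chromosome 15, 102751534 to 102867274, plus strand) carried 51.0% of all Hox FPKM in fl/fl and 51.1% in AD1KO. The sum was 55.7 FPKM in fl/fl and 84.2 FPKM in AD1KO, with a log2 ratio of summed reads of 0.60 (interval 0.52 to 0.69). Of 7 tested genes 5 were higher and none was lower, and the median was 0.62, and 0.08 with scaling to the adipocyte markers.

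Hoxc8 was the most abundant Hox transcript in both libraries, followed by Hoxc6 and Hoxc10. Hoxc8, a gene of the lower trunk and a marker of white preadipocytes, was at 18.69 FPKM in fl/fl and 31.95 FPKM in AD1KO. From about 744 and 1254 reads its log2 ratio was 0.77 (interval 0.64 to 0.91), which makes it the best counted rise of the family. Hoxc6, a gene of the upper trunk, was at 14.79 and 23.01 FPKM (0.64, interval 0.45 to 0.83), and its neighbours Hoxc5 at 3.52 and 5.43 FPKM (0.62, interval 0.34 to 0.92) and Hoxc4 at 2.58 and 3.71 FPKM (0.52, interval 0.12 to 0.93) were also past the call. These 4 genes lie next to each other, and their intervals overlapped. Hoxc4 was the nearest to the threshold from above, with a ratio of -0.02 under scaling to the adipocyte markers.

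Farther back in HoxC lie Hoxc9, Hoxc10 and Hoxc11. Hoxc9 was at 5.36 and 6.34 FPKM (log2 ratio 0.24, interval -0.06 to 0.54), and Hoxc10, a lumbar gene also known from subcutaneous fat, was at 10.74 and 13.23 FPKM (0.30, interval 0.09 to 0.51). Neither was past the call, and both intervals lay below that of Hoxc8 but overlapped those of Hoxc4, Hoxc5 and Hoxc6. Hoxc11 is listed at 0 in fl/fl and had about 7 reads in AD1KO, at 0.50 FPKM. With fl/fl taken as 0 reads, its interval runs from 0.55 upward without limit. Hoxc13 had about 1 read in fl/fl against a listing of 0 in AD1KO.

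The HoxD cluster (chromosome 2, 74506367 to 74603200, plus strand) had 7 tested genes, of which 5 were higher and none was lower, at a summed level of 14.2 FPKM in fl/fl and 19.9 FPKM in AD1KO. The log2 ratio of its summed reads was 0.48 (interval 0.33 to 0.64). The median over its genes was 0.84, and 0.30 with scaling to the adipocyte markers, and it rests on low genes, since over the 4 HoxD genes with at least 50 reads it was 0.61.

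Hoxd8, the most abundant HoxD gene, was at 8.31 FPKM in fl/fl and 10.32 FPKM in AD1KO (log2 ratio 0.31, interval 0.06 to 0.57), and it was not past the call. Hoxd9, which acts in the lumbar region and the forelimb, was at 2.42 and 4.34 FPKM (0.84, interval 0.45 to 1.24). Hoxd4 was at 2.39 and 3.12 FPKM (0.38, interval 0.14 to 0.63), while Hoxd3 was at 0.35 and 0.78 FPKM, on 17 and 38 reads (1.13, interval 0.32 to 2.10). Hoxd3 and Hoxd4 share 1725 exon bases on the same strand, which is 67.4% of those of Hoxd4. Hoxd10 and Hoxd11, known from limb and kidney, were past the call at 0.62 and 0.16 FPKM in fl/fl and 0.92 and 0.30 FPKM in AD1KO, with intervals that included 0. Hoxd1 is listed at 0 in fl/fl and had about 4 reads in AD1KO, and its interval, from -0.58 upward without limit, includes 0.

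**Figure D1:**
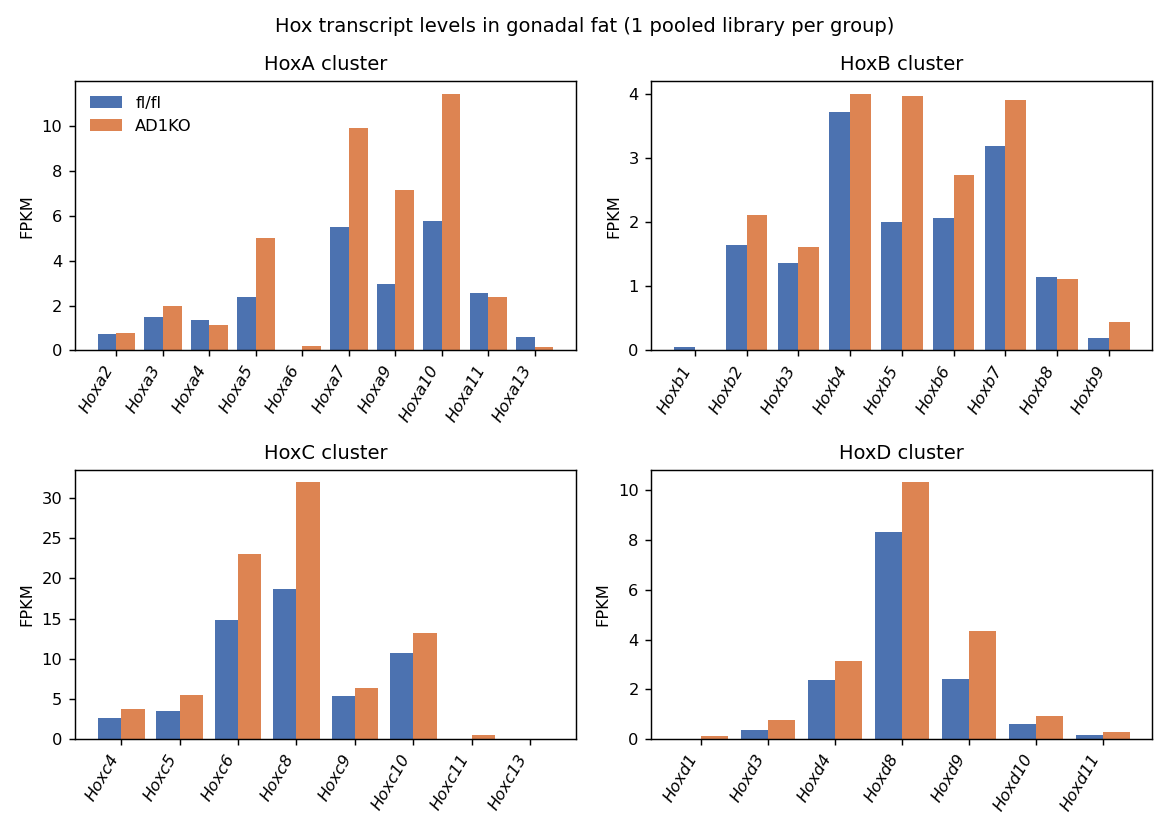
Level of the Hox genes in FPKM (vertical axis, a separate linear scale for each cluster, starting at 0) in the fl/fl library (blue) and the AD1KO library (orange), ordered by paralog number. There are no error bars, since each bar is 1 pooled library. Hoxc8 is the highest bar in both libraries, at 18.69 and 31.95 FPKM, and Hoxa13 is the only tested gene past the call with a higher bar in fl/fl.

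Of the 33 tested genes, 29 had a ratio above 0, against 45.3% of all tested genes, and 4 a ratio below 0 (Hoxa4, Hoxa11, Hoxa13 and Hoxb8). With scaling to the adipocyte markers 13 of those 29 turned negative, among them Hoxc9, Hoxc10, Hoxd4 and Hoxd8. The counting interval lay wholly above 0 for 15 Hox genes, against 21.5% of all tested genes, wholly below 0 for 1, against 29.0%, and included 0 for 17. It lay wholly past 0.5 for 7 genes, namely Hoxa5, Hoxa7, Hoxa9, Hoxa10, Hoxb5, Hoxc8 and Hoxc11, against 4.18% of all tested genes. Hoxc11, listed at 0 in fl/fl, passed the filter through AD1KO alone, and its interval takes fl/fl as 0 reads. Without the genes listed at 0 in fl/fl, 6 remained.

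Low genes passed the filter of 0.1 FPKM in some cases through the AD1KO library alone, and 6 of the 17 higher genes had under 50 reads over both libraries. Of the 23 Hox genes at 1 FPKM or more in either library, 10 were higher and none was lower, against 10.1% of all genes at that level higher. Their median log2 ratio was 0.39. Over the 24 genes with at least 50 reads, 11 were higher and the median was 0.40. Leaving out the 3 genes listed at 0 in fl/fl gave a median of 0.40, and setting Hoxc11 and Hoxd1 to the bound that 3 reads give, without Hoxa6, gave 0.42.

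**Figure D2:**
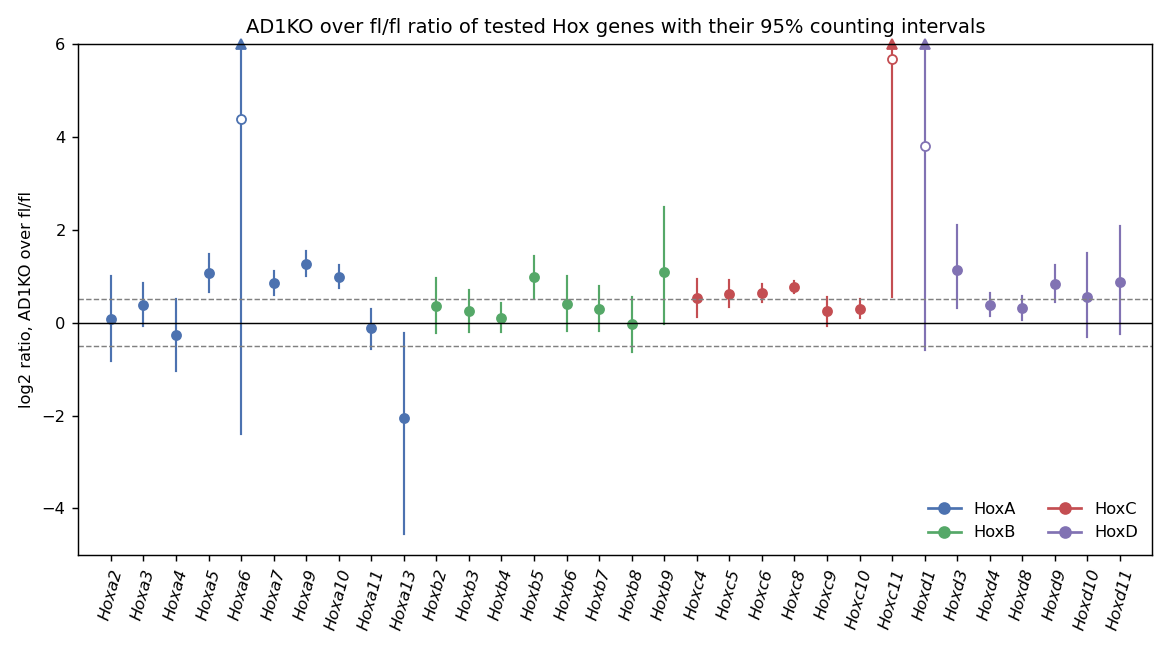
Log2 ratio of AD1KO over fl/fl FPKM (vertical axis) for the Hox genes described singly, ordered by cluster and paralog number, with vertical lines for the 95% counting interval, dashed lines at 0.5 and -0.5, and open points for the 3 genes listed at 0 in fl/fl, whose arrows mark intervals without an upper limit. Hoxa5, Hoxa7, Hoxa9, Hoxa10, Hoxb5, Hoxc8 and Hoxc11 have their whole interval past 0.5, that of Hoxc11 with fl/fl taken as 0 reads. With scaling to the adipocyte markers every point would lie lower and the median of 0.52 would be -0.02.

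By position along the body axis, the anterior Hox genes moved less than the central and posterior ones when reads were summed. For paralogs 1 to 4, 3 of 11 tested genes were higher, and the summed reads, about 776 and 961, had a log2 ratio of 0.33 (interval 0.19 to 0.47). For paralogs 5 to 8, 7 of 11 were higher and the summed ratio was 0.68 (interval 0.60 to 0.76). For paralogs 9 to 13, 7 of 11 were higher, 1 was lower, and the summed ratio was 0.65 (interval 0.55 to 0.76). The interval of the anterior group lay below both others, and the central and posterior intervals overlapped. Each count includes a gene listed at 0 in fl/fl (Hoxd1, Hoxa6 and Hoxc11 in turn), which could only be called higher. Over genes with at least 50 reads, 2 of 8, 6 of 10 and 3 of 6 were higher. Abundant genes weigh most in such sums, and the medians over genes with at least 50 reads were 0.37, 0.63 and 0.57. With scaling to the adipocyte markers the medians of the 3 groups were -0.18, 0.10 and 0.30, so the anterior one turned negative.

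Among single paralog groups, paralog 5 had each of its listed members, Hoxa5, Hoxb5 and Hoxc5, past the call with an interval wholly above 0. Its summed reads had a log2 ratio of 0.82 (interval 0.62 to 1.03). Paralog 9 had the largest positive sum, 0.86 (interval 0.69 to 1.03), with Hoxa9, Hoxb9 and Hoxd9 past the call and Hoxc9 not. These intervals overlapped those of paralogs 6, 7, 8 and 10, whose sums were 0.62, 0.73, 0.65 and 0.61. Paralog 4, with Hoxa4, Hoxb4, Hoxc4 and Hoxd4 all above 1 FPKM, had a sum of 0.30 (interval 0.13 to 0.46), below the intervals of paralogs 5 and 9. Paralog 11 was at 0.10 (interval -0.29 to 0.49). For paralog 2 the interval of the sum ran from -0.21 to 0.77 on 66 reads in fl/fl, so this depth could not show a difference.

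The order of levels was much the same in both libraries, with Hoxc8, Hoxc6 and Hoxc10 in the first 3 ranks. Hoxa10 and Hoxd8 exchanged ranks 4 and 5, Hoxa9 went from rank 11 to rank 7 and Hoxa5 from rank 15 to rank 10. HoxA held 21.8% of all Hox FPKM in fl/fl and 24.7% in AD1KO, and HoxB 14.1% and 12.1%. Against all tested genes the family was of low to middle abundance, with the highest percentiles of mean level at 81.3 for Hoxc8 and 76.5 for Hoxc6, and the median gene of the table was at 5.58 FPKM in fl/fl.

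**Figure D3:**
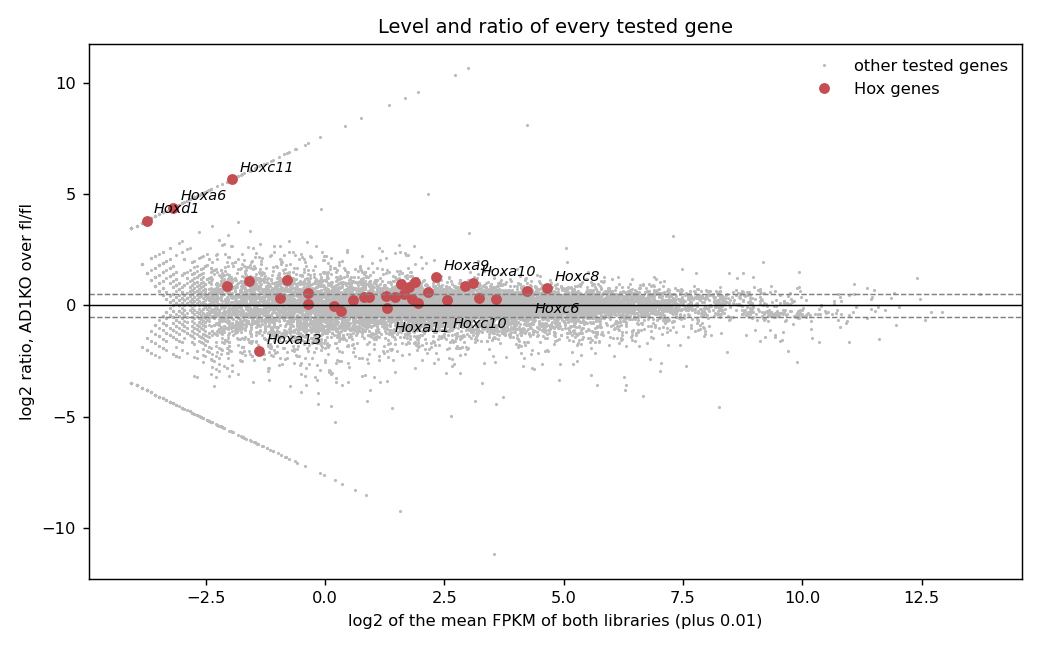
Log2 ratio of AD1KO over fl/fl (vertical axis) against the log2 of the mean FPKM of both libraries after adding 0.01 (horizontal axis) for every tested gene, with Hox genes in red, other genes in grey and dashed lines at 0.5 and -0.5. The diagonal lines at the left are genes listed at 0 in 1 library, which include Hoxc11, Hoxa6 and Hoxd1. Of 33 Hox genes 29 lie above 0, and 16 would with scaling to the adipocyte markers.

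Hoxa13, which patterns the digits and the lower reproductive tract, was the single Hox gene past the call downward. It was at 0.61 FPKM in fl/fl and 0.14 FPKM in AD1KO, from about 13 and 3 reads, with a log2 ratio of -2.05 and an interval from -4.55 to -0.23. Markers of oviduct and uterus epithelium moved the same way. Of 8 such markers 7 were tested, 5 were lower and none was higher, with a median log2 ratio of -3.19, which a pseudocount of 0.1 or 1 FPKM brings to -1.81 or -0.32. The summed level of the 8 went from 21.2 FPKM in fl/fl to 11.7 FPKM in AD1KO, and Pax8 and Foxj1 are listed at 0 in AD1KO. Ovgp1, the oviduct glycoprotein, was at 3.51 and 0.17 FPKM, and Krt7, an epithelial keratin that mesothelium also expresses, at 7.64 and 10.25 FPKM. Of 6 markers of uterine stroma 5 were tested, and the list includes Hoxa10 and Hoxa11 themselves. Only Hoxa10 was higher, and none was lower. Bmp2 and Hand2 of that list were at 1.52 and 0.67 FPKM in fl/fl and 1.78 and 0.89 FPKM in AD1KO. The part of reproductive tract RNA in the Hox ratios was not tested.

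Other genes that distinguish fat depots were read beside the Hox genes. Beside the counts of these short lists, 14.3% of all tested genes were higher and 19.1% lower. Of 8 genes known to be higher in visceral fat, 3 were higher and 1 was lower in AD1KO, with a median log2 ratio of 0.43, and -0.11 with scaling to the adipocyte markers. Nr2f1 (-0.32), Thbs1 (0.05), Tcf21 (0.48) and Gata6 (0.38) of that list were not past the call. Gpc4, a glypican, was at 13.47 and 20.42 FPKM (0.60), Wt1, a transcription factor of visceral progenitors and mesothelium, at 3.74 and 6.35 FPKM (0.76), and Bnc1, also mesothelial, at 0.84 and 1.68 FPKM (0.99). Gata4 was past the call downward at 0.33 and 0.17 FPKM, from about 19 and 10 reads, with an interval that included 0. Of 4 subcutaneous genes, 2 were higher and 1 was lower, with a median of 0.27. Sfrp2, a secreted Wnt modulator, was at 19.53 and 30.08 FPKM (0.62). Shox2 was past the call upward (0.91) on about 3 and 6 reads, En1 was at 0.32 and 0.30 FPKM, and Tbx15 was past the call downward, from about 7 reads in fl/fl to a listing of 0 in AD1KO. Of 4 genes of brown fat, Zic1 is not listed and Lhx8 had about 1 read in each library. Epsti1, which interferon also induces, was lower at 22.07 and 9.55 FPKM (-1.21), and Mpzl2 was past the call at 0.38 and 0.81 FPKM. Among the Hox genes themselves, Hoxa5 and Hoxc8, known to be higher in intra-abdominal fat of mice, were past the call, and Hoxc9 and Hoxc10, known from subcutaneous fat, were not. The intervals of Hoxc9 and Hoxc10 reach past 0.5. These 4 Hox genes were not set out beforehand and are on neither depot list. Other Hox genes that differ between depots were not gathered, so no pattern by depot can be read from the 4. A shift of depot identity was not tested.

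The partners and regulators of Hox genes did not share their median. Of 9 Pbx, Meis and Pknox genes, whose proteins bind DNA together with Hox proteins, 2 were higher and 1 was lower. Over all tested genes 14.3% were higher and 19.1% lower. The median log2 ratio of the 9 was -0.15, with a range from -0.60 to 0.63. Meis1 was at 2.97 FPKM in fl/fl and 4.21 FPKM in AD1KO (0.50, interval 0.22 to 0.80), and Meis3 at 10.04 and 6.62 FPKM (-0.60, interval -0.87 to -0.33).

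Among the 11 genes of Polycomb repressive complex 2, which methylates histone H3 at lysine 27 over silent Hox genes, none was higher and 2 were lower, near the 19.1% of all tested genes. All 11 had a ratio below 0 on the FPKM scale, where 45.3% of all tested genes were above 0, from -1.12 to -0.01, with a median of -0.27 and medians from -0.81 to -0.18 over the other settings. Ezh2, its catalytic subunit in dividing cells, was at 4.38 and 3.07 FPKM (-0.51, interval -0.84 to -0.19), and Phf19 at 1.10 and 0.50 FPKM (-1.12, interval -1.76 to -0.49), while Ezh1 was at 14.71 and 14.61 FPKM. Of 18 genes of Polycomb repressive complex 1 only Pcgf5 was past the call, at 6.12 and 3.46 FPKM (-0.82), and the median was -0.02. Of 11 genes of the MLL complexes and the H3K27 demethylases, which oppose Polycomb, only Wdr5 was past the call, at 7.19 and 4.99 FPKM (-0.53), with a median of -0.20. The calls of Pcgf5 and Wdr5 were downward, where 19.1% of all tested genes were lower and 14.3% higher.

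Retinoic acid, which switches on Hox genes in the embryo, has 17 pathway genes in the list. Of the 16 tested, 1 was higher and 2 were lower, against 14.3% and 19.1% of all tested genes, with a median log2 ratio of 0.06. Rxrg, a retinoid X receptor, was past the call at 8.45 and 13.68 FPKM (0.69). The retinoic acid synthases Aldh1a1, Aldh1a2 and Aldh1a3 had ratios of 0.39, 0.41 and 0.01, none past the call. Crabp2 had about 10 reads in fl/fl against a listing of 0 in AD1KO. Of 8 Cdx, Evx and ParaHox genes, the relatives and upstream regulators of the clusters, only Evx1 is listed, at 0.02 FPKM in fl/fl. None of 11 long noncoding RNAs of the clusters is listed.

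**Figure D4:**
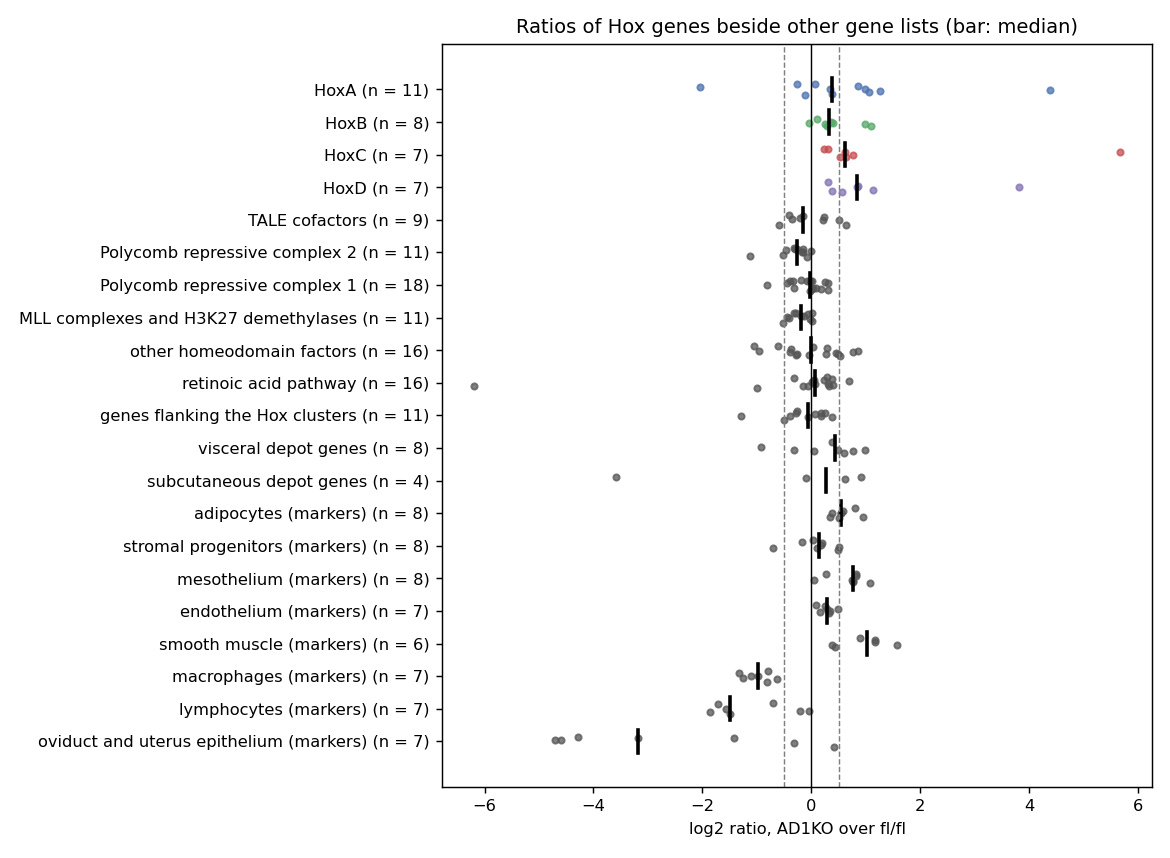
Log2 ratio of AD1KO over fl/fl (horizontal axis) for each tested gene (points, spread vertically for sight) of the Hox clusters and of other gene lists (rows, n tested genes), with a black bar at each median and dashed lines at 0.5 and -0.5. The medians of HoxA to HoxD, 0.39, 0.33, 0.62 and 0.84, lie to the right of those of the TALE cofactors (Pbx, Meis and Pknox, -0.15) and of Polycomb repressive complex 2 (-0.27), and near that of the adipocyte markers (0.54). Over genes with at least 50 reads the HoxA and HoxD medians are 0.85 and 0.61, and with scaling to the adipocyte markers the HoxA and HoxB medians would be -0.15 and -0.21.

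Markers of the cell types of the pad differed between the libraries. Adipocyte markers were abundant in both, as the tissue label gives, with Fabp4 at 11151 FPKM in fl/fl and 15920 FPKM in AD1KO. Of 8 adipocyte markers 6 were higher and none was lower (median log2 ratio 0.54, range 0.35 to 0.96), and their sum went from 16119 to 24378 FPKM. Of 8 mesothelial markers 6 were higher (0.76, sum 98.2 to 175 FPKM), and of 6 smooth muscle markers 4 (1.03, sum 236 to 415 FPKM). Of 8 stromal progenitor markers 1 was higher and 1 lower (0.15, sum 1317 to 1498 FPKM), and none of 7 endothelial markers was past the call (0.29, sum 118 to 139 FPKM). All 7 macrophage markers were lower (-0.98, sum 3427 to 1707 FPKM), as were 5 of 7 lymphocyte markers (-1.50, sum 103 to 53.3 FPKM). Of 6 ovary markers 2 were tested and 1 was higher, and of 5 skeletal muscle markers 4 were tested, 1 higher and 2 lower.

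Set against these lists, 16 of the 33 Hox ratios lay above the adipocyte median, 13 above the mesothelial, 7 above the smooth muscle, 25 above the endothelial, 27 above the stromal progenitor and 32 above the macrophage median. Hoxa9 was above the adipocyte, mesothelial and smooth muscle medians. Hoxa5 at 1.06 was also above the 3, and Hoxa10 at 0.99, Hoxb5 at 0.98 and Hoxa7 at 0.85 lay between the mesothelial and the smooth muscle medians. Hoxc8 at 0.77 lay close to the mesothelial median, and Hoxc5 and Hoxc6 lay between the adipocyte and the mesothelial ones. With scaling to the stromal progenitor markers, also chosen after seeing the data, 13 Hox genes were higher and 1 was lower, and the median of all tested genes moved to -0.19. The part of cell makeup in the Hox ratios was not tested.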

How the data were processed

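mRNA of gWAT was sequenced on a BGISEQ-500 instrument by the authors' service provider, and clean reads were aligned to mm9. The aligner, the program that quantified expression and its strand setting are not given in the sources used here. The authors deposited expression as FPKM in 1 table of both libraries, with 0 written as 0.01. Its columns of log2 fold change, P-value and FDR are the authors' own comparison and were not used.

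Values of 0.01 were set back to 0. Log2 ratios of AD1KO over fl/fl were taken with a pseudocount of 0.01 FPKM. A gene entered the comparison if either library reached 0.1 FPKM (15839 of 17335), and counted as higher or lower from 0.5 on the log2 scale, the study's own threshold. No p-value was computed, as there is 1 pooled library per group. Reads were estimated as FPKM times transcript length, less 116 bases, times the depth that brought low values nearest to whole reads. Of 434 and 440 low values, 80.2% and 79.5% lay within 0.15 of a whole read. A gene listed at 0 was allowed 3 reads. The steps were tested on simulated data.

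The genes named are the Hox genes in the table, Dnmt1, and from each other list up to 6 members past 0.5 with at least 1 FPKM, chosen by the size of the ratio. Other genes named from these lists, among them low ones and those not past 0.5, were picked after their values were seen. The Hox genes and all lists were chosen with earlier results of these data known. Lists were matched by gene ID. Positions are from GENCODE on mm9 and promoters from RefSeq on GRCm38.p6. Matplotlib 3.10.9, pandas 2.3.3, SciPy 1.17.1 and NumPy 2.4.6 were run under Python 3.11.15. A Hox gene and a Hox partner gene are not reported singly here and enter only counts, sums and medians. Alternatives were other pseudocounts, filters, thresholds and scalings.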

Additional observations from a re-analysis of the deposited data

How the results depend on the processing

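No paired analysis was possible because each group has 1 pooled library, and for the same reason no replicate could be left out. With 17 Hox genes higher and 1 lower on the FPKM scale, a pseudocount of 0.1 FPKM, trimmed mean of M-values, upper quartile and median of ratios scaling each gave 17 and 1. A pseudocount of 1 FPKM gave 10 higher and 0 lower, as did a minimum of 1 FPKM, and no filter gave 17 and 3. A threshold of 1 gave 7 and 1, and the whole counting interval past the threshold 7 and 0. Among alternatives chosen after seeing the data, at least 50 estimated reads gave 11 and 0, leaving out genes listed at 0 gave 14 and 1, and scaling to the stromal progenitor markers 13 and 1. Scaling to the adipocyte markers gave 7 and 4, turned the median of all Hox genes to -0.017 and with it Hoxc4, the gene at that median, and moved the HoxB median to -0.21 and the HoxC median to 0.084. Here the rise of the adipocyte markers is subtracted by construction. Over the alternatives on single genes in which each was tested, up to 11, 16 Hox genes stayed above 0, 3 stayed below 0 (Hoxa4, Hoxa11 and Hoxa13) and 14 changed sign in at least 1, while low genes such as Hoxc11 and Hoxa13 were absent under the stricter filters. Of the 14, 13 did so with scaling to the adipocyte markers, and Hoxb8 did with the trimmed mean and upper quartile.

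Over all tested genes 42.8% of calls were higher, and 51.4% with upper quartile scaling (2771 higher and 2621 lower), 29.6% with scaling to the stromal progenitor markers and 8.48% with scaling to the adipocyte markers (849 and 9159). The counts of 2265 higher and 3029 lower genes became 965 and 1661 with a pseudocount of 1 FPKM, 910 and 1417 with a threshold of 1, 662 and 1311 with the whole interval, 1281 and 2068 with a minimum of 1 FPKM, and 1334 and 2080 with at least 50 estimated reads. Fewer genes enter a stricter filter by construction. Depth limits the low genes, since 9 of the 33 tested Hox genes had under 50 reads over both libraries.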

Other observations

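Of 16 tested homeodomain genes outside the clusters, 3 were higher and 3 lower, which is near the 14.3% and 19.1% of all tested genes, with a median log2 ratio of -0.01. Prrx2, a mesenchymal factor of the limb and face, was at 6.4 FPKM in fl/fl and 3.09 FPKM in AD1KO (-1.05, interval -1.53 to -0.57), and Tgif1, which represses targets of TGF-beta and retinoid signaling, at 22.22 and 11.41 FPKM (-0.96, interval -1.17 to -0.75). Msx1 was past the call at 1.31 and 0.85 FPKM, with an interval that included 0. Irx3, a gene tied to fat cell thermogenesis, was at 2.55 and 4.32 FPKM (0.76, interval 0.39 to 1.12), and Six5 at 4.87 and 7.04 FPKM (0.53, interval 0.28 to 0.78). Six4 was past the call from about 10 and 18 reads, and the abundant Prrx1 was at 21.81 and 21.08 FPKM.

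Of 11 tested genes that flank the Hox clusters none was higher and 2 were lower, against 14.3% and 19.1% of all tested genes, with a median log2 ratio of -0.06. Skap1, an adaptor of T cells that lies beside HoxB, was at 3.20 and 1.31 FPKM (-1.28, interval -1.82 to -0.78), and Skap2, beside HoxA, at 37.95 and 26.64 FPKM (-0.51, interval -0.65 to -0.37). On the other side of HoxA, Hibadh was at 111.69 and 144.46 FPKM (0.37, interval 0.30 to 0.44). Calcoco1 beside HoxC (0.25), and Mtx2 (0.19) and Atf2 (0.18) near HoxD, also had intervals wholly above 0 without being past the call. In the other direction, Snx10 (-0.27), Smug1 (-0.39) and Hnrnpa1 (-0.26) of the same list had intervals wholly below 0 without being past the call.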
